A study of Mus musculus with 2 samples.

Results

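Boll, Pum2, Ythdc1, Ythdc2 and Celf1 are 5 genes for RNA-binding proteins of germ cells, and their peaks were taken from a list of RNA regions recovered with BUD31. Every row of the list whose gene symbol was one of the 5 was kept. This gave 39 of 16331 peaks, and all 5 genes had at least 1 row among the 3258 genes the list names. The genes were chosen from this list with their peaks known, so the number, class and place of the peaks are given as a description without a test.

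The study used RNA immunoprecipitation sequencing (RIP-seq), in which an antibody recovers a protein with its bound RNA and the RNA is sequenced. The first library held the RNA that came down with the BUD31 antibody, and the input library was made from 10% of the total RNA. Both came from C57BL/6J testicular germ cells at postnatal day 14, separated by enzymatic digestion, and the labels name no mutation or drug in either. There was 1 library of each kind, so nothing here has a replicate check or a p-value. The list holds no read count, fold or score, so sequencing depth is not known, and what can be given for a gene is the place of its peaks and the length they cover.

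BUD31 is a protein of the spliceosome, the machine that removes introns from new transcripts. The 5 genes encode proteins that act on RNA after it is made. BOLL belongs to the DAZ family, whose members bind messenger RNA in germ cells and promote its translation, and PUM2 is a Pumilio protein that binds motifs in 3′ UTRs (untranslated regions) and lowers the output of its targets. YTHDC1 and YTHDC2 carry a YTH domain, which recognises N6-methyladenosine (m6A), a methyl mark on adenosine. YTHDC1 sits in the nucleus and takes part in splicing and export, while YTHDC2 is an RNA helicase that mouse germ cells need for meiosis. CELF1 binds GU-rich elements and takes part in alternative splicing and messenger RNA decay.

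The peaks of 4 of the genes lay mostly in introns and those of Celf1 lay in its 3′ UTR. By the authors' classes, which give 1 class to each peak, introns held 34 of the 39 peaks, the 3′ UTR held 3, an exon held 1 and the stretch upstream of a gene held 1. The intron share of 87.2% stands beside 81.8% over all 16331 peaks, of which 3′ UTRs held 4.79% and exons 5%. Boll, Pum2 and Ythdc1 together had 28 intron peaks among 29. Ythdc2 had 6 intron peaks and 1 exon peak. Celf1 had 3 peaks, all in the 3′ UTR and none in an intron. Over the protein-coding genes of the 15 chromosomes in the list, 18.8% had a peak of any class, 15.9% had an intron peak and 4.37% had a 3′ UTR peak, and nothing is read from these shares since the genes were picked for having peaks.

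**Figure D1:**
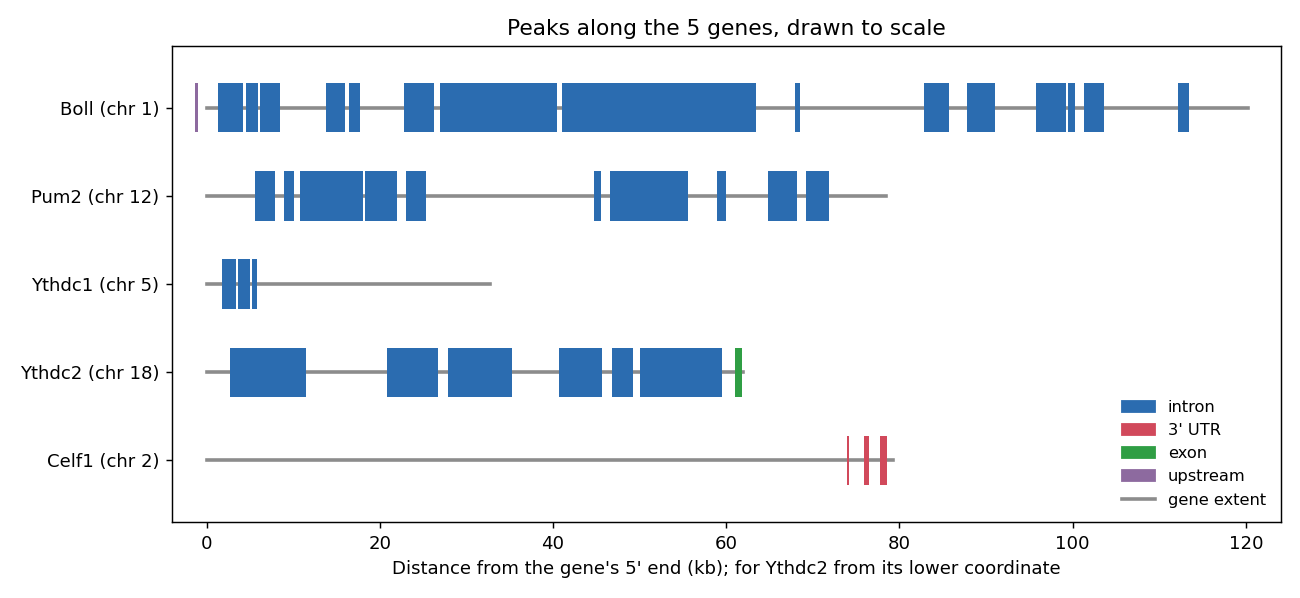
Peaks of the 5 genes drawn to scale, with distance from the 5′ end of the gene in kb on the horizontal axis (for Ythdc2, from its lower coordinate) and 1 gene in each line. Grey lines are gene extents and coloured blocks are peaks by class. The intron peaks of Boll, Pum2 and Ythdc2 are spread along the gene, the 3 of Ythdc1 lie within 5.82 kb of its 5′ end, and the 3 peaks of Celf1 lie in the last 5.3 kb.

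The 5 genes differed in how much of them the peaks covered. Ythdc2 was covered over 63.9% of its extent, Boll over 53.2%, Pum2 over 42.8%, Ythdc1 over 11% and Celf1 over 2.02%. Together the peaks covered 142 of 373 kb, or 38.2%. Peaks per 10 kb of gene ran from 1.33 in Boll, 1.27 in Pum2, 1.13 in Ythdc2 and 0.918 in Ythdc1 to 0.379 in Celf1. Ythdc2 therefore led in covered share with fewer peaks per length than Boll or Pum2, and its median peak was 5800 bp wide against 2255 bp in Boll and 2460 bp in Pum2.

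Boll is a gene of 120 kb on the minus strand of chromosome 1, at 55243566 to 55363789 in mm10, and carried 16 peaks. A run of 3 intron peaks at 55300391 to 55340980, with 615 bp between neighbours, covered 97% of 40.6 kb. Within that run lay the 2 widest peaks of the gene, of 22345 bp at 55300391 to 55322735 and of 13530 bp at 55323351 to 55336880. These 2 peaks alone covered 29.8% of Boll, and the wider one ranked 8 among the 4112 intron peaks of chromosome 1. Cut into 4 segments of equal length from the 5′ end, Boll was covered over 55.5%, 98%, 30.4% and 28.9%, and the wide run fills most of segment 2.

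The other 13 Boll peaks were 410 to 3485 bp wide. The intron peak nearest the 5′ end lay at 55359636 to 55362505, and the one nearest the 3′ end at 55250371 to 55251600. Its single peak outside the gene, of 410 bp at 55364761 to 55365170, was annotated as upstream of a noncoding Boll transcript. Just beyond the 3′ end a peak of 6150 bp at 55238276 to 55244425, which the authors named for the neighbour Mars2 and classed as intergenic, reached 860 bp into Boll. The pseudogene Gm8292, at 55335388 to 55335878, lies under the peak of 13530 bp. It was the only other gene in the reference table that overlaps any of the 5 genes.

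Pum2 is a gene of 78.5 kb on the plus strand of chromosome 12, at 8674092 to 8752583, and had 10 peaks, all intronic. They formed a pair of groups. The first had 5 peaks between 8679701 and 8699380, and the widest of these was 7380 bp, at 8684826 to 8692205. The second had 5 peaks between 8718856 and 8745915 and held the widest peak of the gene, of 9020 bp at 8720701 to 8729720. Between the groups 19475 bp carried no peak, the longest gap between neighbouring peaks of the same gene among the 5. The 4 segments of Pum2 from the 5′ end were covered over 62%, 23.7%, 50.1% and 35.5%, and the gap fell mainly in segment 2. No peak was assigned to the first 5.61 kb or the last 6668 bp.

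Ythdc1 is a gene of 32.7 kb on the plus strand of chromosome 5, at 86803980 to 86836659. Its 3 intron peaks, of 1600, 1400 and 600 bp, lay at 86805801 to 86807400, 86807601 to 86809000 and 86809201 to 86809800. They formed a single stretch of 4 kb that was 90% covered, with 200 bp between neighbours. Positions in the list come in bins of 200 or 205 bp on these chromosomes, so each of these breaks is 1 bin. The stretch began 1.82 kb from the 5′ end. Segment 1 of Ythdc1 was covered over 44.1% and the other 3 segments over 0%.

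Ythdc2 spans 62 kb of chromosome 18, at 44827730 to 44889720, and carried 7 peaks. Its 6 intron peaks were 2400 to 9400 bp wide, and 4 of them were over 5000 bp: 9400 bp at 44877801 to 44887200, 8800 bp at 44830401 to 44839200, 7400 bp at 44855601 to 44863000 and 5800 bp at 44848601 to 44854400. The exon peak, of 800 bp at 44888801 to 44889600, ended 120 bp before the upper end of the gene. It was classed on a noncoding transcript of Ythdc2. From the lower to the higher coordinate its 4 segments were covered over 56.8%, 57.6%, 59.9% and 81.3%. Within the intron class the YTH genes thus differed in pattern, with a short broken stretch near the 5′ end of Ythdc1 and wide peaks along all 4 segments of Ythdc2. Their chromosomes differed too, with median intron peaks of 800 bp on chromosome 5 and 3600 bp on chromosome 18. Gene and chromosome cannot be told apart here.

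Celf1 is a gene of 79.2 kb on the plus strand of chromosome 2, at 90940259 to 91019497. Its peaks, of 200, 600 and 800 bp, lay at 91014201 to 91014400, 91016201 to 91016800 and 91018001 to 91018800. All were classed on the same transcript model. The first began 5.3 kb before the 3′ end of the gene and the last ended 697 bp before it. The peaks lay 1800 and 1200 bp apart, and the 73.9 kb before them carried no peak. Segment 4 of Celf1 was covered over 8.08% and the other 3 over 0%.

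Few genes with at least 3 peaks, the number in Celf1, had all of them in the 3′ UTR. Of 1439 coding genes with at least 3 peaks, 3 had all of them in the 3′ UTR (0.208%), whereas 564 had all of them in introns (39.2%), as Pum2 and Ythdc1 did. Those 3 genes were Celf1, Trim44 and Ttbk2, and all lie on chromosome 2. The Trim44 peaks were 200, 1600 and 400 bp wide and the Ttbk2 peaks were 200, 400 and 600 bp wide. On chromosome 2 the 3 genes were 9.38% of the 32 with at least 3 peaks. On chromosomes 1, 5, 12 and 18, which hold the other 4 members, no such gene was found among 333, 274, 193 and 106. With any number of peaks, 133 of 2799 coding genes (4.75%) had only 3′ UTR peaks. Of these, 15 lie on chromosome 2 and 20, 22, 5 and 7 on chromosomes 1, 5, 12 and 18. Celf1 was picked with its peak classes known, so nothing is read from these shares.

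The chromosomes themselves differed in class and width, and this moves with the contrast between Celf1 and the other genes. Introns held 85.6% of the peaks on chromosome 1, 85.5% on chromosome 12, 82.6% on chromosome 5 and 83.2% on chromosome 18, against 74.1% on chromosome 2 (95% Wilson interval 69.4% to 78.3%). The 3′ UTR class held 4.85%, 4.1%, 4.48% and 5.48% on those 4 chromosomes, against 11.7% on chromosome 2 (8.82% to 15.4%). These intervals cover counting error over peaks only, and peaks are not replicates. On chromosome 2, 103 of 1782 coding genes had a peak (5.78%), against 39.9%, 44.2%, 39.2% and 37.8% on chromosomes 1, 12, 5 and 18. The running numbers that the authors gave the peaks cover 410 on chromosome 2, of which 367 are in the list, and 16089 on chromosome 1, of which 4806 are. The class of the Celf1 peaks and the chromosome it lies on cannot be told apart with 1 gene.

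Intron peaks of the 5 genes were 600 to 22345 bp wide with a median of 2532.5 bp, and 32 of the 34 were wider than the widest Celf1 peak of 800 bp. The same order was present between the chromosomes without regard to class. On chromosome 2 the median intron peak was 400 bp and the median 3′ UTR peak 600 bp. On chromosomes 1, 12, 5 and 18 the medians of intron peaks were 1025, 2460, 800 and 3600 bp and those of 3′ UTR peaks 1230, 2255, 1000 and 2800 bp. Set against its own class and chromosome, Celf1 had 1 of 3 peaks above the median width, Boll had 13 of 16, Ythdc2 5 of 7, Ythdc1 2 of 3 and Pum2 5 of 10. Boll thus had the highest share of the 5 above these medians, and the peaks of Pum2 fell evenly around them.

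**Figure D2:**
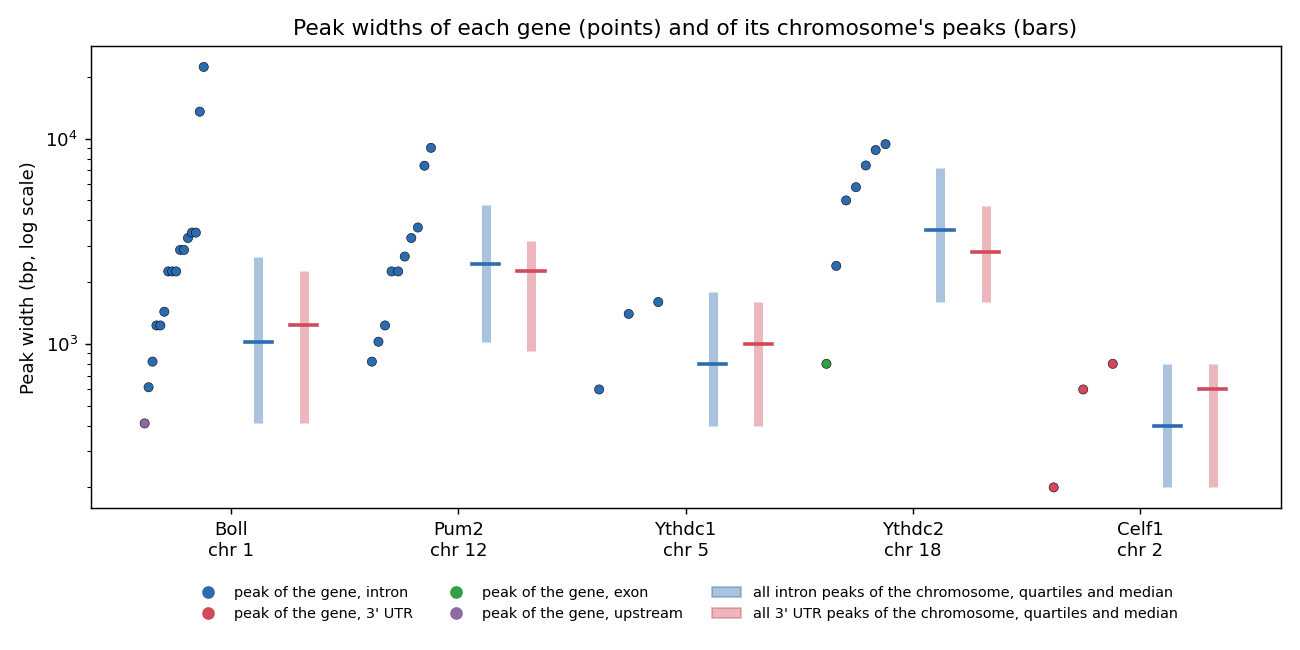
Width of each peak of the 5 genes in bp on a log axis (points, coloured by class), beside the median (line) and quartiles (bar) of all intron and 3′ UTR peaks on the same chromosome. The 3 points of Celf1, at 200 to 800 bp, lie within the quartiles of chromosome 2 for 3′ UTR peaks, and 2 points of Boll, at 13530 and 22345 bp, lie far above the upper quartile of 2665 bp for intron peaks on chromosome 1.

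Against coding genes with a peak on the same chromosome, the 5 genes were in the upper part or the middle. Boll ranked 64 by number of peaks and 121 by covered share among 480 genes on chromosome 1, where the median gene had 5 peaks and 30.6% covered. Pum2 ranked 56 and 110 among 300 on chromosome 12, with medians of 4 peaks and 32%. Ythdc2 ranked 30 and 51 among 193 on chromosome 18, with medians of 3 peaks and 34.6%. Ythdc1 shared rank 203 with the other genes of 3 peaks and ranked 235 by covered share among 497 on chromosome 5, close to medians of 3 peaks and 10.1%. Celf1 ranked 25 by peaks and 57 by covered share among 103 on chromosome 2, where the medians were 2 peaks and 2.42%. Its covered share, the lowest of the 5, was thus near the middle for its chromosome. Ranks by number of peaks were shared by 7 genes for Boll, 4 for Pum2, 14 for Ythdc2 and 8 for Celf1, each count including the gene itself.

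Each gene was also set beside the 5 coding genes nearest to it in span on its chromosome. Boll had 16 peaks and its 5 neighbours in span 0 to 9, with 9 in Fam178b, which was covered over 71.1%. Pum2 had 10, and its neighbours 0 to 24, with 24 in Trip11, 13 in Ak7 and 10 in Ppp1r13b. Ythdc1 had 3, and of its neighbours only Anapc4 had a peak, also 3 in introns, over 15.3% of the gene. Ythdc2 had 7, against 2 each in Kdm3b and Abhd3 and 0 in the other neighbours. The peaks of Kdm3b covered 61.2% of it, near the 63.9% of Ythdc2, and those of Abhd3 6.41%. Celf1 had 3, and its 5 neighbours, among them Nup214 and Gapvd1, had 0. On chromosome 2, 5.78% of coding genes had a peak, beside 39.2% on chromosome 5 of Ythdc1 and 37.8% on chromosome 18 of Ythdc2. On chromosomes 1 and 12, of Boll and Pum2, it was 39.9% and 44.2%. The 5 genes were picked for having peaks and the neighbours were not, so nothing is read from the larger numbers. Expression of these genes in the cells is unknown here, and its part in the differences was not tested.

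**Figure D3:**
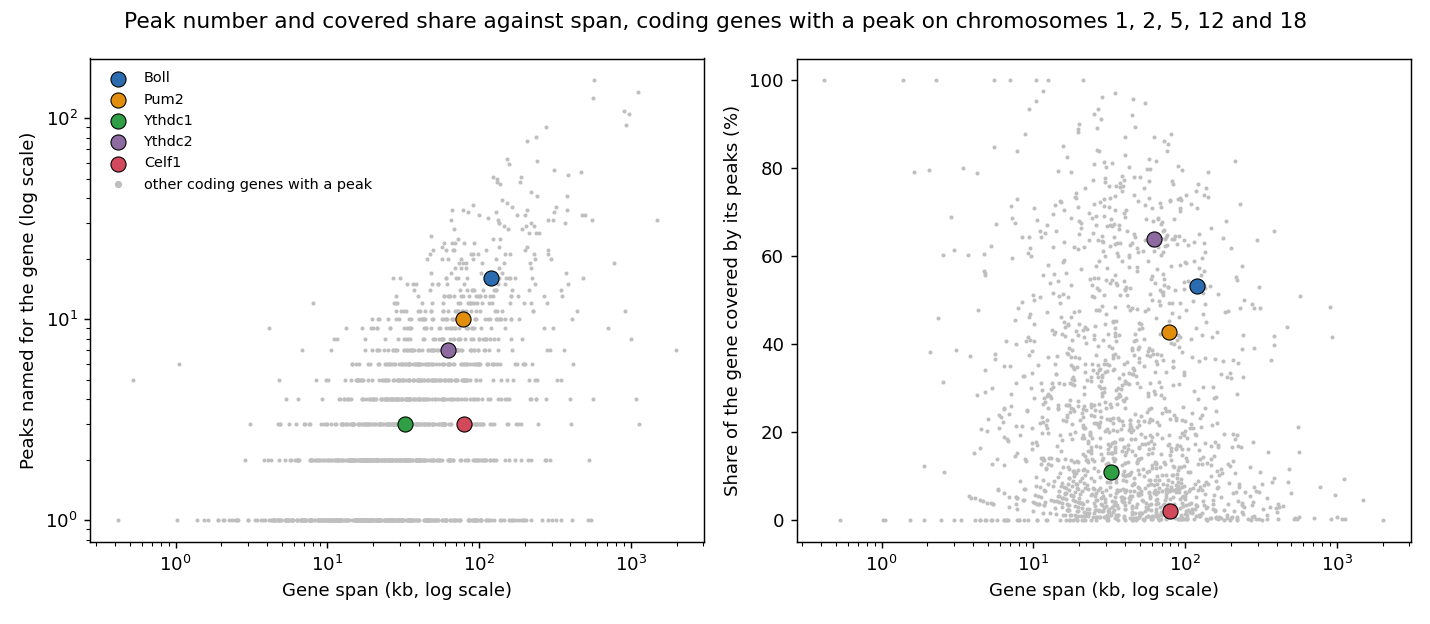
Number of peaks (left, log axis) and share of the gene covered by its peaks in percent (right) against gene span in kb on a log axis, for the 5 genes (large coloured points) and the other coding genes with a peak on chromosomes 1, 2, 5, 12 and 18 (small grey points). Boll with 16 peaks and Pum2 with 10 lie among other genes of their span. Ythdc2, at 63.9%, is the most covered of the 5, and Celf1, at 2.02%, the least.

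Transcription starts were compared for Boll, Pum2, Ythdc1 and Celf1, with 7 start windows from 250 bases before to 50 after each start in the RefSeq promoter table for GRCm38.p6, which is the mm10 assembly. No peak overlapped any of the 7 windows. The nearest was an intron peak 174 bp from the inner start window of Boll, at 55362679 to 55362978. The outer Boll window, at 55363704 to 55364003, lay 758 bp from the upstream peak, so both starts fell between peaks. In Ythdc1 the distance was 1486 bp and in Pum2 4971 to 5518 bp. The start window of Celf1 was 73755 bp from its first peak.

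The classes rest on transcript models. Of the 39 peaks 35 were classed on predicted RefSeq models and 7 on noncoding transcripts of the same gene. The models named for 22 of the 39 are in the reference table. For Boll this held for 1 of 16, so its intron boundaries were drawn on models not used here. A wide peak of the intron class can also cover exons, and exon positions were not analysed here. Between the first and last running number of a gene, Boll lacked 6 numbers of 22, Ythdc2 4 of 11 and Pum2 1 of 11, while Ythdc1 and Celf1 lacked none of 3. Numbers rise with position on every chromosome, and 1 of the missing ones falls in the gap of 19475 bp in Pum2, 2 in the 9400 bp gap of Ythdc2 and 1 in the 14350 bp gap of Boll. Whether a peak was called there is not given in the sources used here, so a gap is not evidence of absent binding.

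The m6A pathway beyond the YTHDC genes was described from lists of writers, erasers and readers, counting genes on chromosomes in the list. The lists were chosen with earlier results of these data known. Of the 5 readers other than Ythdc1 and Ythdc2, which were picked for their peaks, 2 had one, beside 18.8% of all coding genes. Fmr1, the X-linked gene for the translational regulator FMRP, had 5 intron peaks and 1 in the 3′ UTR over 42.4% of its extent. Ythdf1, a cytoplasmic reader on chromosome 2, had 2 intron peaks of 200 bp each, over 2.42%. Ythdf2, Igf2bp1 and Igf2bp2 had none. They lie on chromosomes 4, 11 and 16, with peaks in 0%, 0.0622% and 34% of coding genes. Of 4 writers, genes for methyltransferases and their cofactors, 1 had a peak, beside 18.8% of all coding genes. This was Cbll1, with 3 peaks, 2 of them in introns, which covered 70.5% of the gene. Wtap, Virma and Mettl16 had none. They lie on chromosomes 17, 4 and 11, with peaks in 3.02%, 0% and 0.0622% of coding genes. The 2 erasers Fto and Alkbh5 had none either, beside the same 18.8%. Alkbh5 also lies on chromosome 11, and Fto on chromosome 8, with peaks in 14.8% of its coding genes. Where so few genes of a chromosome have a peak, the lack of one says little about a gene. Meioc, the meiotic partner of YTHDC2, had none and lies on chromosome 11, with peaks in 0.0622% of its coding genes.

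Among the DAZ, Pumilio and NANOS families, Boll and Pum2, which were picked for their peaks, were the 2 of 8 genes with a peak. Of the 6 others 0 had one, beside 18.8% of all coding genes. Among those without a peak were Dazl, the DAZ family member that acts early in germ cells, Nanos3 and Dnd1. Dazl lies on chromosome 17, which belongs to the 7 chromosomes with peaks in under 10% of their coding genes. These chromosomes hold 4 of the 8 genes of these families, and 0 of the 4 had a peak. Boll and Dazl therefore cannot be compared apart from their chromosomes. In the CELF and MBNL families, both of splicing regulators, 2 of 4 genes other than Celf1 had a peak, beside 18.8% of all coding genes. Mbnl3, on the X chromosome, had 13 over 71.1% of its extent, of which 11 were in introns, 1 in the 3′ UTR and 1 in the 5′ UTR. Celf4 had 1 intron peak and 1 intergenic peak, whereas Celf1 had 3′ UTR peaks. Celf2, on chromosome 2 like Celf1, had none.

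Over all 8 lists of RNA-binding genes 17 of 46 had a peak. Without the 5 genes it was 12 of 41 (29.3%, 95% Wilson interval 17.6% to 44.5%), beside 18.8% of all coding genes. The interval covers counting error over genes only, and genes are not replicates. Of the 41 genes 24 lie on chromosomes with peaks in under 10% of their coding genes, so the 18.8% is not matched to them. On the 8 chromosomes with peaks in 10% or more of their coding genes, 10 of 17 list genes had one (58.8%), against 35.7% of all coding genes there. On the other 7 it was 2 of 24 (8.33%), against 2.28%. These shares were not matched on gene span. The lists were chosen with earlier results of these data known, so nothing is read from the shares.

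**Figure D4:**
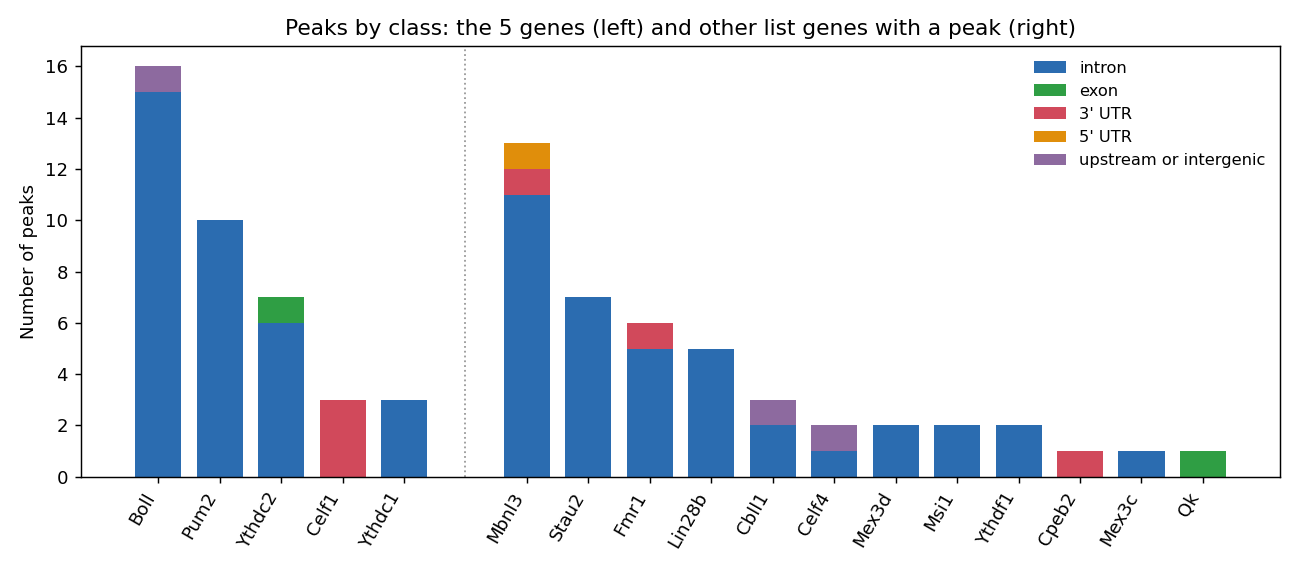
Number of peaks by class (stacked bars, from 0) for the 5 genes, left of the dotted line, and for the 12 other list genes with a peak, right of it. Introns hold most peaks of Boll, Pum2, Ythdc2, Ythdc1, Mbnl3, Stau2, Fmr1 and Lin28b. The 3′ UTR holds all peaks of Celf1 and the single peak of Cpeb2.

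A peak list does not give expression, so the cells could be checked against markers only by peaks. Of 6 germ cell markers on chromosomes in the list 4 had a peak, with 14 peaks in Mael, 3 in Kit and 1 each in Sycp3 and Tex14, and Dazl and Dmc1 had none. Markers of Sertoli, Leydig, peritubular myoid cells and macrophages had a peak in 2 of 11 genes (18.2%), with 1 each in Wt1 and Myh11, beside 18.8% of all coding genes. On the 8 well covered chromosomes 3 of 3 germ cell markers and 1 of 5 somatic markers had a peak, beside 35.7% of all coding genes there. On the 7 thinly covered chromosomes it was 1 of 3 and 1 of 6, beside 2.28%. With so few genes these counts say little about the cells. The list has no peak on chromosomes 3, 6, 7, 9, 13 and 14, which hold 29 of the 75 listed RNA-binding genes. These genes were therefore not counted, and the reason for the lack of rows is not known.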

How the data were processed

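RIP-seq peaks of BUD31 were taken from 1 list that the authors deposited for the series, with 1 BUD31 library and 1 input library. Groups came from the titles of the samples. The submitters' processing notes name TopHat2 2.0.13 and the mm10 build. How peaks were called, with which threshold and with what use of the input, is not given in the sources used here. Per the file headers the deposited values are each peak's start and end in bp, a class, a transcript and a gene. They hold no level, so no test was made.

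Peaks were assigned by the authors' gene symbol. Gene extents came from the RefSeq table of GRCm38.p6, in which 3216 of 3258 listed genes were found and 42 were not. Covered share is the union of a gene's peaks within its extent. Coordinates are 1-based. Strand was taken from the promoter table. For Ythdc2 positions run from its lower coordinate. Named genes were the 5 genes, up to 4 genes with most peaks per list, and 5 neighbours in span. List genes without a peak, Trim44, Ttbk2 and Mars2 were named after their values were seen. The genes and lists were chosen with earlier results of these data known. The coverage code was tested on simulated intervals. A listed gene is not reported here. Depth is unknown. Planned use of peak strength was void, since the list has none. Alternatives are given in the closing section. Python 3.11.15, numpy 2.4.6 and pandas 2.3.3 were used.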

Additional observations from a re-analysis of the deposited data

How the results depend on the processing

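Of 50 recomputed values, 44 stayed within 1.5 times the reported count or, for covered shares, within a Wilson interval over bins, and 6 did not. Bins of the same peak are not independent and are not replicates, so the interval over bins is a convention and measures no spread between samples. Joining peaks of the same gene up to 5 bins apart, an alternative added after seeing the data, lowered the 39 peaks to 23, with 9 in Boll, 4 in Pum2, 6 in Ythdc2, 1 in Ythdc1 and 3 in Celf1. Joining those 1 bin apart gave 34 and made the 3 peaks of Ythdc1 a single one. Both follow from the construction, and peak numbers depend on how gaps are treated. With only peaks no narrower than the median of their chromosome, coverage was 35.9% of the 5 genes in place of 38.2%, and 29 peaks remained. By construction neither value could rise. Assigning by overlap with the gene extent gave 39 peaks and 38.4% covered. The set was not the same, since the upstream peak of Boll dropped out and the peak named for Mars2 came in. Keeping gene-body classes, or peaks with at least 50% of their length in the gene, gave 38 each. The count of 17 list genes with a peak was the same when peaks were assigned by overlap and when gene-body classes were kept. An alternative on peak strength was not run, since the list has none. No paired analysis was possible because there was 1 library per group and no test. Depth is unknown.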

Other observations

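Other RNA-binding genes of germ cells that were listed had peaks of several kinds. In the CPEB and Musashi families, regulators of translation, 2 of 5 genes had a peak, beside 18.8% of all coding genes. Both lie on chromosome 5, with peaks in 39.2% of its coding genes. Msi1 had 2 intron peaks of 2600 and 2800 bp over 5.59% of its extent, and Cpeb2 had 1 peak of 1000 bp in its 3′ UTR. Cpeb3, Cpeb4 and Msi2 had none. Cpeb3 lies on chromosome 19, with peaks in 0% of its coding genes, and Cpeb4 and Msi2 on chromosome 11, with 0.0622%. Among 14 other germ cell RNA-binding genes 5 had a peak, of which 4 were among the 6 on well covered chromosomes, with peaks in 35.7% of coding genes, and 1 among the 8 on thinly covered ones, with 2.28%. Stau2, for a double-stranded RNA-binding protein, had 7 intron peaks over 6.68% of a gene of 292 kb. Lin28b, whose protein blocks let-7 processing, had 5 intron peaks over 6.38%. Mex3c had 1 peak of 18200 bp, classed as intron, over 90.2% of the gene, and Mex3d had 2 over 43.9%. Qk, a splicing regulator, had 1 exon peak of 1200 bp on chromosome 17, with peaks in 3.02% of its coding genes.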
